A study of Mus musculus with 8 samples.

Results

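The collagen chain genes are described here across the cells of B16F10 tumours grown in hosts with and without Atf4. Members were every gene of the deposited feature tables whose symbol is Col, a number, a and a number, which gave 44 of 31053 genes. No expression value entered that choice. Tumours were raised in mice from B16F10, an established mouse melanoma cell line that carries Atf4 itself, and were sampled when large. The 4 Atf4wt/wt hosts were 2 female and 2 male mice, and the 4 Atf4D/D hosts were 1 female and 3 male mice, all listed as 12 weeks old. Both groups carried Rosa26::CreERT2, an inducible recombinase driven from a locus active in nearly all tissues, and both received tamoxifen. In the Atf4D/D hosts loxP sites flanked part of Atf4, so excision was directed at host cells of every type rather than at fibroblasts alone. Each tumour gave 1 library of 3′ single-cell RNA-seq, and the 8 tumours are the replicates throughout.

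Collagens are extracellular proteins built from 3 chains wound into a triple helix, and each chain has its own gene. Fibrillar chains form the banded fibres of connective tissue, basement membrane chains form the sheet under epithelium and around vessels, and beaded filament, multiplexin and fibril-associated (FACIT) chains decorate or link these structures. In tumours the cancer-associated fibroblast (CAF) is known as the main source of fibrillar collagen, while endothelial cells and pericytes are known for basement membrane collagen. The transcription factor ATF4 drives genes of amino acid supply, and collagen is unusually rich in glycine and proline.

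The libraries held 4231 to 8696 barcodes and 37283598 to 74942137 unique molecular identifiers (UMIs) each, and 28169 cells were kept, 2706 to 5573 per tumour with a median of 8117 to 11058 UMIs per cell. A UMI stands for 1 captured RNA molecule, so levels below are counts per 1000000 UMIs of a cell group (CPM), which are not divided by gene length because 3′ counting gives 1 tag per molecule. Among 41925 barcodes, 199 barcode sequences occurred in 2 or more libraries. Cells were clustered and named with every collagen gene left out, so that collagen did not define the groups. This gave 23714 melanoma-like cells, 730 CAF-like cells, 897 immune cells, 36 endothelial-like cells and unnamed clusters of 1078, 917 and 797 barcodes with few UMIs. All 12 CAF markers fixed for naming, among them Dcn and Lum, were detected in the CAF-like cells. The number of CAF-like cells was 71, 51, 64 and 70 in the Atf4wt/wt tumours and 126, 97, 10 and 241 in the Atf4D/D tumours. Atf4D/D replicate 3 therefore rests on 10 cells and stands apart from the other tumours, and values with and without it are given where it changes a result. The CAF-like cells split into 314 adventitial-like cells led by Cxcl13 and Pi16, 172 hypoxic CAF-like cells led by Pgf and Cck, 75 perivascular-like cells led by Rgs5, 87 cells led by the cell-cycle genes Hist1h2ap and Nuf2, and 82 cells that also carried melanoma markers.

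The deleted gene was checked first. In CAF-like cells Atf4 was at 297 ± 19.3 CPM (SD, n = 4) in Atf4wt/wt tumours and at 129 ± 38.6 CPM (SD, n = 4) in Atf4D/D tumours, and the tumours did not overlap. The difference was −1.30 ± 0.20 on the log2 scale (SE, adjusted p = 0.0375, edgeR quasi-likelihood fit, p-values adjusted over all genes tested by the method of Benjamini and Hochberg). In adventitial-like cells Atf4 was at 279 and 43.8 CPM in the respective hosts (log2 difference −2.66 ± 0.31, SE, edgeR adjusted p = 0.00317). In hypoxic CAF-like cells it was at 343 and 121 CPM (−1.70 ± 0.38, SE, edgeR adjusted p = 0.0909). The CAF-like cells include 82 with melanoma markers, and their part in the remaining Atf4 was not tested. In melanoma-like cells, which carry the gene in both hosts, Atf4 was at 359 and 378 CPM (log2 difference 0.03, edgeR adjusted p = 0.960).

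Collagen transcripts were concentrated in the CAF-like cells, which are 2.59% of the cells kept and held 83.0% of the 169316 collagen UMIs. Collagen made up 3.64% of all UMIs of CAF-like cells, between 2.85% and 5.03% in single tumours. The share was 5.44% in adventitial-like cells, 3.04% in hypoxic CAF-like cells, 2.20% in perivascular-like cells and 0.646% in endothelial-like cells. Melanoma-like cells held 0.0106% and immune cells 0.00579%, so both lay below the range over tumours within CAF-like cells. Of the 44 chains, 35 reached 10 UMIs in at least 1 named group. The other 9 (Col4a3, Col4a6, Col6a4, Col6a5, Col6a6, Col8a2, Col19a1, Col22a1 and Col26a1) stayed under 10 UMIs in each. Col22a1 and Col26a1 had 0 UMIs in 28169 cells, which allows a level of up to 0.0112 CPM over all cells kept, counting error only.

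**Figure D1:**
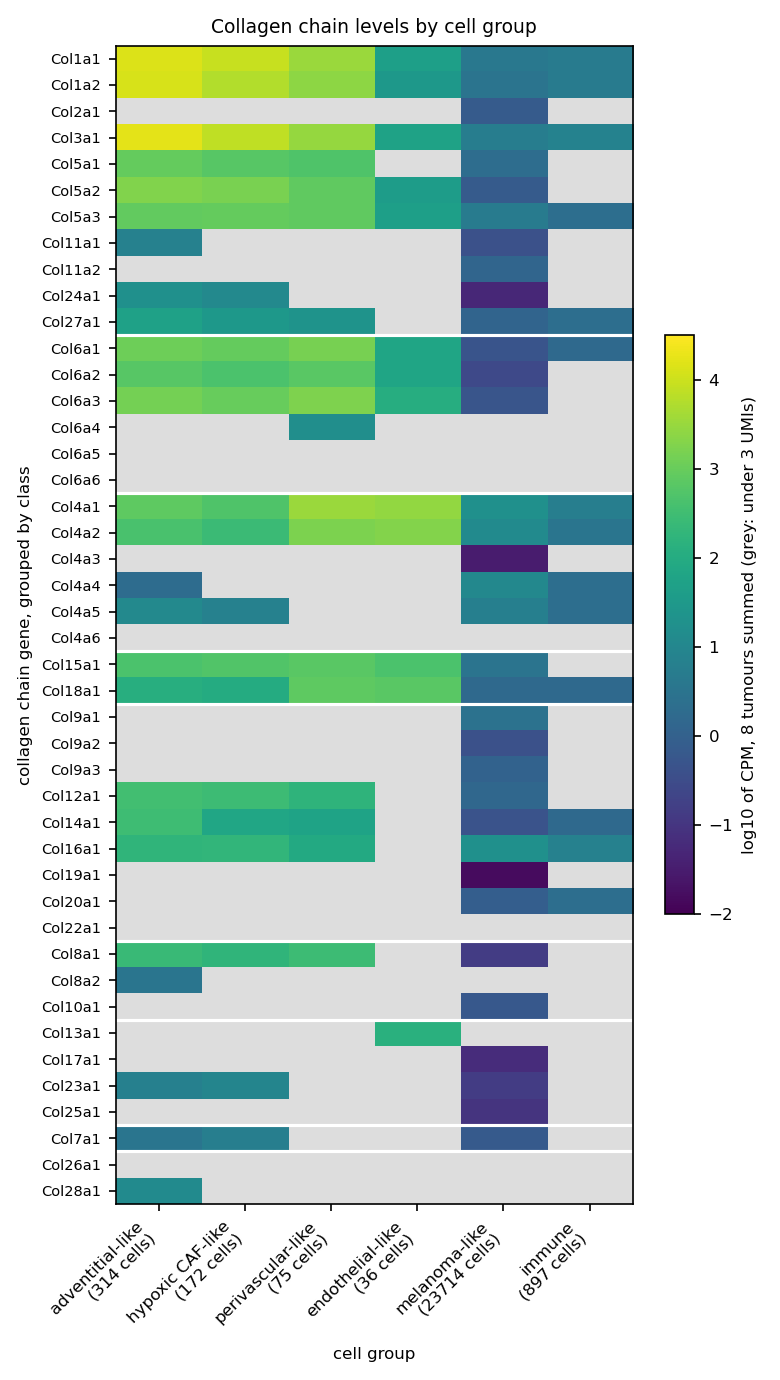
Level of each of the 44 collagen chains (rows) in 6 cell groups (columns) as log10 CPM with all tumours summed; grey marks fewer than 3 UMIs. The abundant fibrillar chains and Col6a1 to Col6a3 are highest in the 3 CAF-like subgroups, and Col4a1 and Col4a2 in perivascular-like and endothelial-like cells.

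Cell groups differed in their leading chains. The CAF-like cells led by Hist1h2ap and Nuf2, and those with melanoma markers, were not ranked. The former stood above adventitial-like cells for Col12a1 and Col27a1. Among the named groups with at least 10 UMIs of a chain, its highest level lay in adventitial-like cells for 13 chains. It lay in perivascular-like cells for 7, in hypoxic CAF-like cells for 2 and in endothelial-like cells for 2. The other 11 reached 10 UMIs in melanoma-like cells and in no other of these groups. Melanoma-like cells hold 96.1% of all UMIs kept, so a low chain can pass that count there alone, and no order is given for these 11. Col7a1, the anchoring fibril chain, was one of them and was at 3.34 CPM in adventitial-like cells, from 5 UMIs, against 0.69 CPM in melanoma-like cells. These are descriptions of levels with no test, since the groups are clusters of the same cells.

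Fibrillar chains held 86.8% of the collagen UMIs of CAF-like cells, with beaded filament chains at 6.61%, basement membrane chains at 3.00%, FACIT chains at 1.64% and multiplexins at 1.39%. Col3a1, whose chains form the fibres of type III collagen, was the most abundant chain at 10922 CPM. Col1a1 and Col1a2, the chains of type I collagen, followed at 9651 and 8164 CPM. Col1a1 had at least 1 UMI in 94.8% of CAF-like cells. Type I collagen takes 2 chains of the Col1a1 product for each chain of Col1a2. The ratio of Col1a1 to Col1a2 UMIs was between 1.12 and 1.39 in the CAF-like cells of the 8 tumours, with a median of 1.16. Col5a2, a regulatory chain that nucleates type I fibres, was at 1343 CPM, and its partners Col5a3 and Col5a1 were at 732 and 690 CPM. The 3 main chains of the type VI beaded filament were at 1036 CPM for Col6a3, 878 CPM for Col6a1 and 486 CPM for Col6a2, while Col6a4, Col6a5 and Col6a6 together had under 10 UMIs.

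Adventitial-like cells had the highest fibrillar levels. Col3a1 was at 17613 CPM there, against 7738 CPM in hypoxic CAF-like cells and 2931 CPM in perivascular-like cells. Col1a2 showed the same order at 12722, 5643 and 2441 CPM. Col14a1, a FACIT chain that sits on the surface of fibrils, was at 306 CPM in adventitial-like cells and at 70.6 and 58.5 CPM in the hypoxic CAF-like and perivascular-like cells. Of the 21 UMIs of Col28a1, 19 were in adventitial-like cells. Col24a1, a fibrillar chain of low abundance, was at 18.1 CPM in adventitial-like and 11.8 CPM in hypoxic CAF-like cells. The hypoxic CAF-like cells led for Col16a1, a FACIT chain, at 194 CPM against 181 CPM in adventitial-like cells, and for Col5a3, at 910 against 880 CPM. Those neighbours in the order lay close together compared with the spread of single tumours.

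Perivascular-like and endothelial-like cells had the highest levels of the basement membrane chains Col4a1 and Col4a2. Col4a1, the main type IV chain, was at 3409 CPM in perivascular-like cells and 2751 CPM in endothelial-like cells, against 787 CPM in adventitial-like cells. Its partner Col4a2 was at 1659 and 1942 CPM in the perivascular-like and endothelial-like cells. Col18a1, the multiplexin whose end fragment is endostatin, was at 749.9 and 676 CPM in the same pair of groups and at 121 CPM in adventitial-like cells. Basement membrane chains held 72.6% of the collagen UMIs of endothelial-like cells and 23.1% of those of perivascular-like cells. These are levels within a group, and the counts lay elsewhere. Of all Col4a1 and Col4a2 UMIs, melanoma-like cells held 59.9% and 65.4%, being most of the cells. CAF-like cells held 34.9% and 28.5%, and endothelial-like cells 3.70% and 4.01%. Melanoma-like cells also held 97.5% of the Col4a4 and 95.9% of the Col4a5 UMIs. The perivascular-like cells differed from endothelial-like cells by their interstitial chains. Col6a3 was at 1776 CPM in perivascular-like and 114 CPM in endothelial-like cells, and Col1a1 at 3393 and 47.6 CPM. Col13a1, a transmembrane collagen, had 14 of its 15 UMIs in endothelial-like cells, a level of 133 CPM.

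In single tumours the endothelial-like levels rest on 2 to 16 cells each. Col4a1 was at 2477, 3819 and 2248 CPM in the Atf4wt/wt tumours with endothelial-like cells, and at 2222, 1705, 4431 and 3666 CPM in the Atf4D/D tumours. Col4a2 was at 1604, 3960 and 1967 CPM in the Atf4wt/wt tumours and at 1192, 947, 2894 and 3519 CPM in the Atf4D/D tumours. Col18a1 was at 690.3, 707 and 421 CPM in the Atf4wt/wt tumours and at 434, 568, 904 and 1173 CPM in the Atf4D/D tumours. The hosts overlapped for all 3 chains. No endothelial-like cell was found in Atf4wt/wt replicate 2, and no test was run because at most 1 tumour of a host had 10 such cells. In perivascular-like cells Col4a1 was at 2386, 2948, 4211 and 3368 CPM in the Atf4wt/wt tumours and at 1329, 2472, 1603 and 4432 CPM in the Atf4D/D tumours, from 2 to 24 cells each. Col1a1 there was at 3181, 2529.8, 5414 and 2644 CPM in the Atf4wt/wt tumours and at 4349, 19036, 2030 and 3457 CPM in the Atf4D/D tumours. Col3a1 was at 2386, 2231, 2105 and 1983 CPM against 3745, 17305, 1068 and 3313 CPM. The high value of both fibrillar chains was that of Atf4D/D replicate 2, from 4 cells. Those ranges overlapped as well, and again too few tumours had 10 cells for a test.

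Type IV chains are encoded in pairs of genes that lie head to head, and partners were expressed unevenly. In the GRCm38 annotation, 8 pairs of neighbouring collagen genes were found, of which 3 were head to head. Col4a1 and Col4a2 lie on chromosome 8 at chr8:11198423-11312826 (minus strand) and chr8:11312805-11449287 (plus strand), so that their first exons overlap by 22 bases. Both were expressed in every named stromal group. Col4a4 (chr1:82448423-82586849, minus strand) and Col4a3 (chr1:82586921-82722059, plus strand) are separated by 71 bases, yet 2883 UMIs of Col4a4 were counted and 9 of Col4a3. Col4a5 (chrX:141475385-141689234, plus strand) and Col4a6 (chrX:141165403-141474076, minus strand) are separated by 1308 bases, and had 1673 UMIs and 1 UMI. Partners of a pair therefore differed by more than 2 orders of magnitude in counts at both loci. A 3′ tag reads the far end of each transcript, so the shared start of a pair does not mix their counts.

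Col4a1 and Col4a2 overlap and so have no gap to show. Shown are the whole gap between Col4a4 and Col4a3, separate stretches upstream of Col4a5 and Col4a6, and the bases just upstream of Col3a1, the most abundant chain. They were read from RefSeq promoter windows of 250 bases upstream on GRCm38.p6, with bases inside annotated exons left out, and are written 5′ to 3′ on the strand of the named gene. Capitals mark matches on either strand to 3 motifs, which are the TATA box letters TATAAA, the CAAT box letters CCAAT and the GC box letters GGGCGG, so CCGCCC is a match to GGGCGG on the other strand. No matches overlapped each other in these stretches.
Col4a4, the whole gap to Col4a3 (chr1:82586850-82586920, minus strand): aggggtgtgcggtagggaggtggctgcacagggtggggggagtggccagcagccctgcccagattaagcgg
Col4a5, upstream (chrX:141475169-141475384, plus strand): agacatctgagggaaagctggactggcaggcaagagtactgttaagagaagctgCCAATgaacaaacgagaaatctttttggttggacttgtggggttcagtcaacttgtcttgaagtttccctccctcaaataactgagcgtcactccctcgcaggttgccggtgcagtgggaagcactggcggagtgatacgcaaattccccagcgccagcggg
Col4a6, upstream (chrX:141474077-141474326, minus strand): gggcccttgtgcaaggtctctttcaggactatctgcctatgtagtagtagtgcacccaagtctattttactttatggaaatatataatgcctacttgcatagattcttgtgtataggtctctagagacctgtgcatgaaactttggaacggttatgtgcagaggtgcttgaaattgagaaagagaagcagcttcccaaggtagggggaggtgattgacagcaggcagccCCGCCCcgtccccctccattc
Col3a1, upstream (chr1:45311288-45311537, plus strand): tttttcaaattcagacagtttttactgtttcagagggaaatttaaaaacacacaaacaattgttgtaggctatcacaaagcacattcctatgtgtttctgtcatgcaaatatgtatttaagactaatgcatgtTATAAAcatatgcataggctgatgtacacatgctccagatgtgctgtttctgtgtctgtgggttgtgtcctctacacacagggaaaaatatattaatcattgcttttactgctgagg
Windows were given for 35 of the 44 chains, 38 windows in all. Unlike the stretches above, the counts below cover all 250 upstream bases of a window, exon bases included. They can therefore hold matches that are not marked above. Col1a1, Col2a1, Col4a3, Col5a2, Col9a3, Col12a1, Col14a1, Col22a1 and Col26a1 had no window. GGGCGG, the core of a GC box, was in 22 of the 38 windows and in 32.7% of 32851 windows of all genes. CCAAT was in 13 of 38 and in 33.8% of all windows. TATAAA was in 5 of 38 and in 12.4% of all windows. TGATGCAA, a letter form of the C/EBP-ATF composite element bound by ATF4, was in none of the 38 and in 0.791% of all windows. A motif that rare can be missing from 38 windows of any genes, so nothing about ATF4 follows from its absence. A match is a description of letters in this window only.

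The comparison of hosts asked whether collagen transcripts per CAF-like cell differed when the host lacked Atf4. No chain passed the threshold. Of 44 chains, 18 had enough counts to be tested in CAF-like cells, and edgeR called 0 of them at an adjusted p under 0.05, as did DESeq2. Of all 4638 genes tested edgeR called 2 (0.0431%). At an unadjusted p under 0.05 there were 2 chains, against 6.49% of all genes. The fitted difference was above 0 for 15 of the 18 chains, and 48% of all genes tested were above 0. The median log2 difference was 0.22 over the 18 chains and −0.01 over all genes.

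Type I collagen levels spread more widely among Atf4D/D than among Atf4wt/wt tumours. Col1a1 was at 7450, 7064, 7756 and 9480 CPM in the Atf4wt/wt tumours and at 10021, 13701, 7740 and 9629 CPM in the Atf4D/D tumours. All Atf4D/D tumours but replicate 3 were above every Atf4wt/wt tumour, and replicate 3 fell among them. The log2 difference was 0.40 ± 0.17 (SE, edgeR adjusted p = 0.733). Without the 10-cell tumour it was 0.53 (edgeR adjusted p = 0.276). Col1a2 was at 6466, 5279, 6909 and 8286 CPM in the Atf4wt/wt tumours and at 8034, 11916, 5560 and 8233 CPM in the Atf4D/D tumours, which overlapped (log2 difference 0.35 ± 0.21, edgeR adjusted p = 0.860). Without the 10-cell tumour its difference was 0.53 (edgeR adjusted p = 0.430).

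Col3a1 was at 9695, 7178, 8583 and 9921 CPM in the Atf4wt/wt tumours and at 11907, 14783, 5511 and 10977 CPM in the Atf4D/D tumours. The 10-cell tumour gave the lowest value of all 8 and the other 3 Atf4D/D tumours the highest. The log2 difference was 0.32 ± 0.24 (SE, edgeR adjusted p = 0.917), and without the 10-cell tumour it was 0.55 (edgeR adjusted p = 0.251). Col5a2 was at 1436, 1117, 1180 and 1314 CPM and at 1413, 1702, 1494 and 1249 CPM in the respective hosts, with a log2 difference of 0.23 ± 0.14 (edgeR adjusted p = 0.885). Col5a3 was at 591, 620, 673 and 630 CPM against 670, 824, 686 and 819 CPM, so that only the highest Atf4wt/wt tumour and the lowest Atf4D/D tumour crossed. Its log2 difference was 0.29 ± 0.14 (edgeR adjusted p = 0.780).

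**Figure D2:**
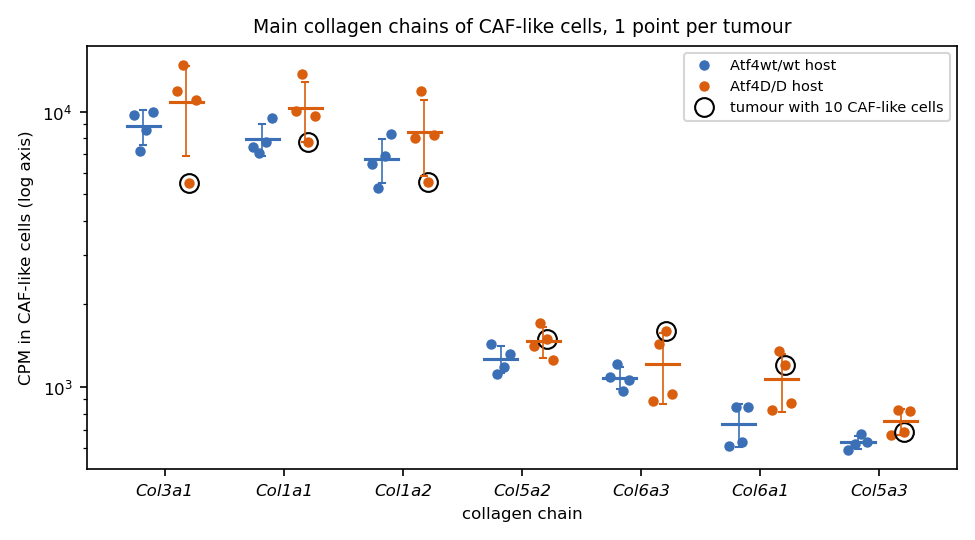
CPM of the 7 chains that hold at least 2% of the collagen UMIs of CAF-like cells, 1 point per tumour, with the mean and SD of the 4 tumours of each host; the circled point is the Atf4D/D tumour with 10 CAF-like cells. The hosts overlap for each chain, and for Col3a1 the circled tumour lies below the Atf4wt/wt tumours.

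The chain with the lowest unadjusted p was Col6a1, a chain of the type VI beaded filament. It was at 609, 848, 633 and 845 CPM in the Atf4wt/wt tumours and at 827, 1355, 1200 and 873 CPM in the Atf4D/D tumours. The log2 difference was 0.53 ± 0.19 (SE, edgeR adjusted p = 0.622), which did not pass. Col6a3 was at 1087, 1209, 967 and 1059 CPM against 890, 1429, 1592 and 946 CPM, which overlapped (log2 difference 0.14 ± 0.18, edgeR adjusted p = 0.972). The ratio of Col6a3 to Col6a1 UMIs was between 1.25 and 1.79 in the Atf4wt/wt tumours and between 1.05 and 1.33 in the Atf4D/D tumours, which overlap.

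By structural class, 6 of 7 fibrillar chains tested had a fitted difference above 0 with a median of 0.29, and 3 of 3 beaded filament chains with a median of 0.47. The single network chain tested, Col8a1, had a fitted difference of −0.17 ± 0.37, although its mean was 231 CPM in Atf4wt/wt and 278 CPM in Atf4D/D tumours. None of these passed the test. The lowest level of the basement membrane chain Col4a1 was 413 CPM and the highest 1984 CPM, and both hosts held high and low tumours. Col4a1 was at 591, 1517, 413 and 643 CPM in the Atf4wt/wt tumours and at 562, 905, 1984 and 655 CPM in the Atf4D/D tumours. The highest tumour of each host had the largest perivascular-like share of its CAF-like cells. That share was 37.3% in Atf4wt/wt replicate 2 and 20% in Atf4D/D replicate 3. Perivascular-like cells held 148 of the 345 Col4a1 UMIs of CAF-like cells in the former. In the latter they held 15 of 81, from 2 of its 10 CAF-like cells. The part of that share in the Col4a1 level was not tested. Summed perivascular markers (12 of 12 detected) ranged from 1447 to 5991 CPM in the CAF-like cells of Atf4wt/wt tumours and from 576 to 5217 CPM in those of Atf4D/D tumours. All 6 perivascular markers tested had fitted differences below 0, with a median of −0.99 and 3 at an unadjusted p under 0.05. Adventitial markers were above 0 for 9 of 10 tested (median 0.42) and hypoxic CAF markers for 8 of 8 (median 0.57). CAF markers were above 0 for 10 of 12 (median 0.27), with 5 at an unadjusted p under 0.05. Matrix CAF markers were above 0 for 4 of 8 (median 0.0060), with 1 at an unadjusted p under 0.05. edgeR called 0 markers of these lists in CAF-like cells. The 12 melanoma markers, all detected, summed to 2163 to 5604 CPM in Atf4wt/wt tumours and 1127 to 4496 CPM in Atf4D/D tumours. Leaving out cells that carried melanoma markers also took Atf4D/D replicate 3 under 10 cells and out of the fit, and Col1a1 then differed by 0.55 (edgeR adjusted p = 0.221), beside 0.53 without that tumour alone. The part of these marker lists in the chain levels was not tested otherwise.

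Adventitial-like cells, the group with the highest fibrillar levels, were also compared on their own. Tumours with at least 10 such cells entered, which left out Atf4D/D replicate 3 with 4 cells. Of 17 chains tested edgeR and DESeq2 called 0, where edgeR called 9 of 2050 genes (0.439%). At an unadjusted p under 0.05 there were 7 chains, all with higher fitted levels in Atf4D/D tumours, against 9.17% of all genes. Col3a1 was at 15302, 15313, 12774 and 14589 CPM in the Atf4wt/wt tumours and at 20070, 22429 and 17296 CPM in the 3 Atf4D/D tumours, which did not overlap. The log2 difference was 0.50 ± 0.12 (SE, edgeR adjusted p = 0.137), so it missed the threshold. It passed without the expression filter (0.62, edgeR adjusted p = 0.000489), where the median of all genes was also above 0, at 0.20. When the clustering was repeated with features in another order, which gave 298 such cells, it passed with DESeq2 (0.50, adjusted p = 0.0482) but not with edgeR (adjusted p = 0.125). The omitted tumour, with 4 cells, was at 9514 CPM, below every other tumour.

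Type I chains in adventitial-like cells lay in the same direction without passing. Col1a2 was at 9091, 11203, 9252 and 12598 CPM in the Atf4wt/wt tumours and at 12998, 18159 and 12450 CPM in the Atf4D/D tumours, where only Atf4wt/wt replicate 4 crossed the lowest Atf4D/D tumour (log2 difference 0.51 ± 0.15, edgeR adjusted p = 0.354). Col1a1 was at 10432, 13981, 9719 and 14236 CPM and at 15009, 20220 and 13296 CPM, which overlapped (0.46 ± 0.17, edgeR adjusted p = 0.405). Col3a1 was the 1 chain whose tumours did not overlap, and such genes with higher Atf4D/D values were 3.66% of all genes tested. The other chains at an unadjusted p under 0.05 were Col6a1, Col4a1, Col4a2 and Col18a1. Col6a1 differed by 0.47 ± 0.22 (edgeR adjusted p = 0.538) and Col4a1 by 0.74 ± 0.33 (edgeR adjusted p = 0.538). Col4a2 and Col18a1 had fitted differences of 0.76 ± 0.31 and 1.31 ± 0.48 (edgeR adjusted p = 0.468 and 0.405). Over the 17 chains the median was 0.42 with 15 above 0, and over all genes −0.0027 with 49.5% above 0. Marker lists of cell identity were also read in the same cells. Adventitial markers were above 0 for 9 of 10 tested, with a median of 0.54 and 1 called by edgeR, and summed to 1028 to 3612 CPM in Atf4wt/wt and 2723 to 3820 CPM in Atf4D/D tumours. CAF markers were above 0 for 8 of 11 with 5 at an unadjusted p under 0.05, and perivascular markers for 0 of 3 with 2 at an unadjusted p under 0.05. Matrix CAF markers were above 0 for 3 of 8 (median −0.15) and hypoxic CAF markers for 1 of 6 (median −0.17). The part of these lists in the chain values was not tested.

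Hypoxic CAF-like cells gave values on the other side of 0 for most chains. Here 3 tumours per host had at least 10 cells, 15 chains were tested and edgeR and DESeq2 called 0, where edgeR called 5 of 1142 genes (0.438%). At an unadjusted p under 0.05 there was 1 chain, with a lower fitted level in Atf4D/D tumours, against 7.27% of all genes. That chain was Col8a1, a short-chain network collagen of vessel walls, at 237, 431 and 190.3 CPM in Atf4wt/wt replicates 1, 3 and 4 and at 132, 126 and 139.6 CPM in Atf4D/D replicates 1, 2 and 4 (log2 difference −1.19 ± 0.33, edgeR adjusted p = 0.220). The hosts did not overlap for it, and such genes with lower Atf4D/D values were 7.88% of all genes tested. The tumours with 4 cells each, left out of the fit, were at 71.6 CPM in Atf4wt/wt replicate 2 and 535 CPM in Atf4D/D replicate 3. Col1a1 was at 8900.3, 5492 and 11922 CPM against 9666, 7598 and 10487 CPM, with no visible order (0.12 ± 0.25, edgeR adjusted p = 0.921). Col3a1 was at 11473, 4749 and 9608 CPM against 8454, 6378 and 8272 CPM, the Atf4wt/wt tumours lying on both sides (−0.11 ± 0.27, edgeR adjusted p = 0.927). Col1a2 was at 6801, 4527 and 8403 CPM against 5062, 4793 and 6303 CPM, which overlapped (−0.24 ± 0.22, edgeR adjusted p = 0.832). Of the 15 chains 4 were above 0 with a median of −0.11, and 51.4% of all genes were above 0. Without Atf4D/D replicate 2 the same count was 8 with a median of 0.01, and without the expression filter it was 20 of 29 chains with a median of 0.36 beside 0.47 over all genes. In the same cells the summed perivascular markers (10 of 12 detected) ranged from 1715 to 4883 CPM in Atf4wt/wt and from 1182 to 1319 CPM in Atf4D/D tumours, with 0 of 3 tested above 0, a median of −1.73 and 1 called by edgeR. Matrix CAF markers (8 of 10 detected) summed to 6914 to 7215 CPM against 3522 to 4572 CPM, with 0 of 3 tested above 0 and 2 at an unadjusted p under 0.05. Hypoxic CAF markers (9 of 9 detected) were above 0 for 6 of 7 tested, at 2409.9 to 5584 CPM against 5546 to 6579 CPM. CAF markers were above 0 for 5 of 9 (median 0.19) with 1 called by edgeR, and adventitial markers for 0 of 2 (median −0.15). The part of these lists in the chain values was not tested. Whether the host difference itself differed between adventitial-like and hypoxic CAF-like cells was not tested.

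**Figure D3:**
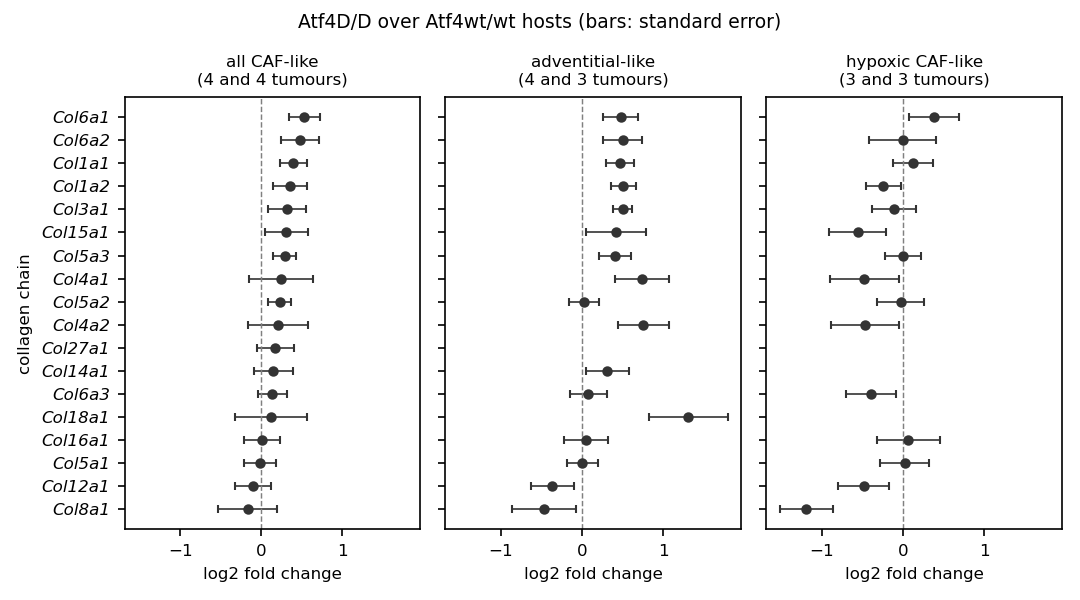
Fitted log2 difference (Atf4D/D minus Atf4wt/wt) with its SE for the chains tested in CAF-like, adventitial-like and hypoxic CAF-like cells. Most CAF-like and adventitial-like chains lie above 0 and most hypoxic CAF-like chains below 0 (11 of 15, or 7 of 15 without Atf4D/D replicate 2), and none passes an adjusted p of 0.05.

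Melanoma-like cells expressed a different repertoire at far lower levels. Basement membrane chains held 45.7% of their collagen UMIs, FACIT chains 23.7% and fibrillar chains 23.2%. The leading chains were Col4a1 at 18.2 CPM, Col16a1 at 18.0 CPM, Col4a2 at 12.9 CPM and Col4a4 at 10.9 CPM. Col4a4 and its relative Col4a5 are minor type IV chains of specialised basement membranes. Col4a4 was at 3.36 CPM in CAF-like cells from 13 UMIs. Col4a5 was at 6.24 CPM in melanoma-like cells and at 11.4 CPM in adventitial-like cells, there from 17 UMIs. Chains of cartilage type were at low levels in melanoma-like cells, with 0.73 CPM of Col2a1, 2.78 CPM of Col9a1 and 1.28 CPM of Col11a2. Col9a1 had 1 UMI and Col11a2 had 2 UMIs in CAF-like cells, and as many in immune cells. Col2a1 had 0 UMIs in both, which allows up to 0.776 CPM in CAF-like cells, so a difference was not detectable at that depth.

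Immune cells served as a low-collagen reference, compared in CPM. The group included 33 cells led by Gpx8 and Aebp1, with the melanoma marker Dct among their leading genes. Those cells gave 31 of its 104 collagen UMIs and 290136 of its 1795217 UMIs. With exact Poisson intervals on the summed UMIs, which cover counting error only, 5 of 44 chains were above the immune level in melanoma-like cells and the intervals of the other 39 overlapped. Those 5 were Col4a1, Col4a2, Col4a4, Col4a5 and Col16a1. The interval of a chain with 0 immune UMIs reached 2.05 CPM, so an overlap can come from low depth alone. Col4a1 was at 18.2 CPM (95% interval 17.7 to 18.8) in melanoma-like and 6.13 CPM (3.06 to 11.0) in immune cells. Col16a1 was at 18.0 CPM (17.5 to 18.5) against 7.24 CPM (3.86 to 12.4). By contrast Col1a1 was at 4.07 CPM (3.82 to 4.32) in melanoma-like and 5.01 CPM (2.29 to 9.52) in immune cells. At least 1 Col1a1 UMI was seen in 3.90% of melanoma-like cells, at a median of 10304 UMIs per cell, and in 1.00% of immune cells, at a median of 1329. Free RNA in a droplet need not scale with the UMIs of its cell. At such unequal depth an overlap in CPM therefore cannot decide whether melanoma-like cells express a chain.

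Proportions among chains were compared between melanoma-like and CAF-like cells. Relative to Col1a1, the melanoma-like cells had 0.93 times the Col1a2, 1.25 times the Col3a1, 1.21 times the Col6a3 and 1.28 times the Col6a1 of CAF-like cells. For 24 chains with at least 10 UMIs the ratio to Col1a1 was more than 2-fold above that of CAF-like cells. Most of these were not above the immune level, and several rested on 1 CAF-like UMI, such as Col9a1 and Col10a1. The ratio was 61.3-fold for Col4a1 and 303-fold for Col16a1. Among interstitial chains it was 1.27-fold for Col5a2 and 1.37-fold for Col6a2, but 7.36-fold for Col5a1, 16.0-fold for Col5a3 and 6.20-fold for Col14a1. Some abundant interstitial chains of the CAF-like cells thus had nearly the same proportions in melanoma-like cells and others did not.

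**Figure D4:**
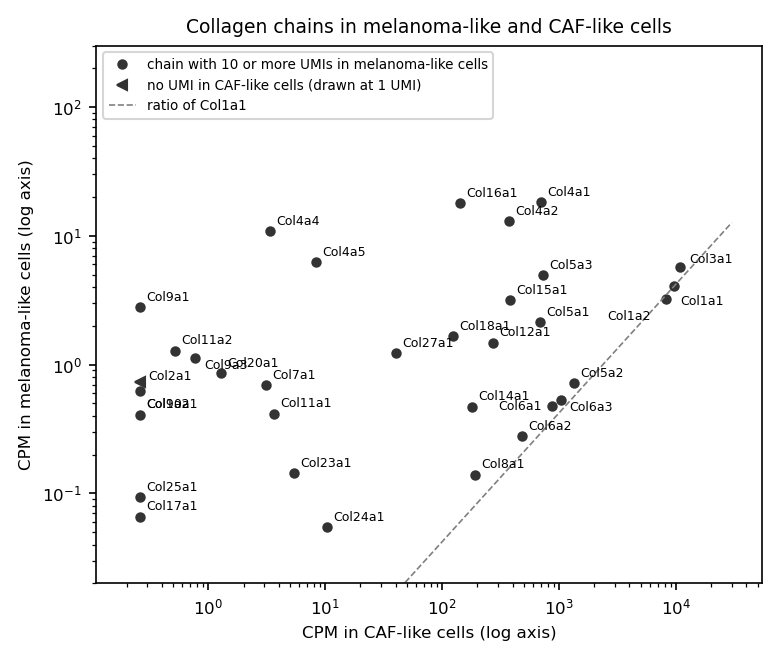
CPM of each chain in melanoma-like cells against CAF-like cells, both on log axes with all tumours summed; the dashed line is the ratio of Col1a1 between both groups. Col1a2, Col3a1 and Col6a1 to Col6a3 lie near the line, and Col4a1, Col4a2, Col4a4, Col4a5 and Col16a1 are among the chains far above it.

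Between hosts, 26 chains were tested in melanoma-like cells and edgeR and DESeq2 called 0, where edgeR called 4 of 12554 genes (0.0319%). At an unadjusted p under 0.05 there were 3 chains, against 11.4% of all genes, and 13 of the 26 fitted differences were above 0. Col1a1 was at 1.80, 1.37, 2.24 and 3.45 CPM in the Atf4wt/wt tumours and at 6.97, 5.06, 0.803 and 12.6 CPM in the Atf4D/D tumours. The Atf4D/D tumours held both the lowest value and the 3 highest. The log2 difference was 1.51 ± 0.59 (SE, edgeR adjusted p = 0.391), and without Atf4D/D replicate 3 it was 1.90 (edgeR adjusted p = 0.0688). Col3a1 was at 2.45, 1.56, 2.86 and 4.89 CPM against 11.3, 6.45, 0.502 and 18.7 CPM, in the same order of tumours (1.64 ± 0.70, edgeR adjusted p = 0.413).

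The order of tumours for these interstitial chains was close to that of the CAF-like share. Col1a1 over all cells kept was at 51.9, 52.6, 94.1 and 121 CPM in the Atf4wt/wt tumours and at 258, 200, 8.58 and 429 CPM in the Atf4D/D tumours. CAF-like cells were 1.27%, 1.66%, 2.37% and 2.20% of the cells kept in the former and 4.28%, 2.72%, 0.27% and 7.05% in the latter. The melanoma-like level of Col1a1 was between 2.38% and 3.46% of the whole-tumour level in all tumours except Atf4D/D replicate 3, where it was 9.35%. The 12 CAF markers together summed to 105 to 148 CPM in melanoma-like cells of Atf4wt/wt and 107 to 115 CPM in those of Atf4D/D tumours, and 6 of 8 tested were above 0 with a median of 0.08. Dcn and Lum, proteoglycans of collagen fibrils, had fitted differences of 2.04 ± 0.63 and 1.04 ± 0.40 (edgeR adjusted p = 0.313 and 0.382). Serpinf1, a secreted serpin, lay on the other side at −0.71 ± 0.26 (edgeR adjusted p = 0.363), and Gsn, Fstl1 and Pdgfrb were at 0.03, −0.0029 and 0.0045. When melanoma-like cells with 3 or more UMIs of 6 stromal markers were left out, the Col3a1 difference was 1.55. The part of RNA from CAF-like cells in these values was not tested otherwise.

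The chains above the immune level varied less between tumours than Col1a1 and Col3a1 did. Chains not above it could be as steady. Col5a3 was at 5.12 ± 0.56 CPM (SD, n = 4) in Atf4wt/wt and 4.92 ± 0.67 CPM (SD, n = 4) in Atf4D/D tumours. Col4a1 in melanoma-like cells was at 20.5, 17.3, 20.7 and 16.5 CPM in the Atf4wt/wt tumours and at 21.3, 17.7, 13.1 and 19.2 CPM in the Atf4D/D tumours. Col16a1 was at 18.3, 16.7, 18.1 and 19.2 CPM against 18.7, 19.5, 17.6 and 16.5 CPM. Both ranges overlapped, with log2 differences of −0.11 ± 0.15 and −0.04 ± 0.08 (edgeR adjusted p = 0.809 and 0.877). Col4a4 was at 12.7, 11.5, 9.31 and 9.16 CPM against 11.0, 8.47, 10.2 and 13.4 CPM (−0.04 ± 0.15, edgeR adjusted p = 0.954). Col2a1, the chain of cartilage fibrils, was the third with an unadjusted p under 0.05, at 1.22, 1.07, 0.414 and 0.739 CPM against 0.620, 0.371, 0.452 and 0.655 CPM (−0.81 ± 0.33, edgeR adjusted p = 0.398), and the hosts overlapped.

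**Figure D5:**
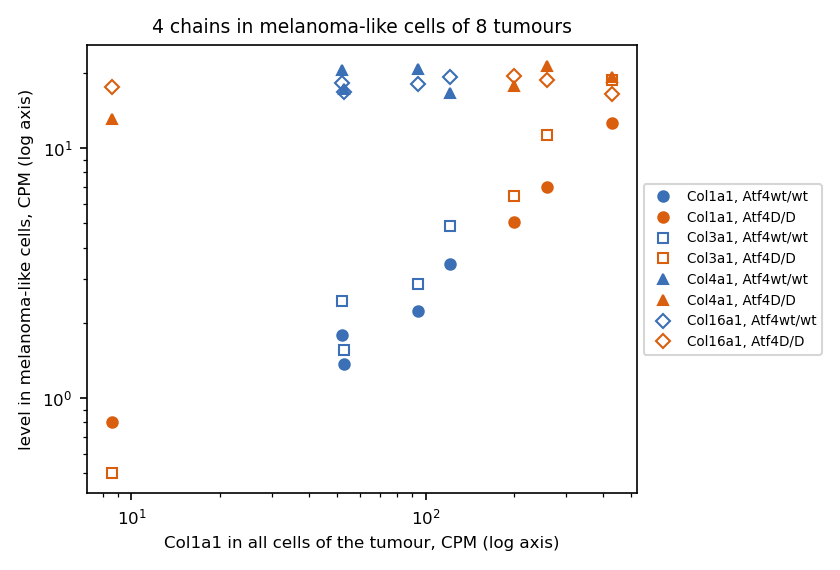
CPM of Col1a1, Col3a1, Col4a1 and Col16a1 in melanoma-like cells of each tumour against the Col1a1 CPM of all cells kept from that tumour, with a log x axis. Col1a1 and Col3a1 are highest in the tumours with the most whole-tumour Col1a1, and Col4a1 and Col16a1 stay between 13.1 and 21.3 CPM.

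Over whole tumours the chains combine how many stromal cells were captured and how much each held, which cannot be told apart in such sums. Of 29 chains tested edgeR and DESeq2 called 0. Of all 13117 genes edgeR called 0 (0%) and DESeq2 122. At an unadjusted p under 0.05 there were 2 chains, against 10.5% of all genes. Col1a1 averaged 79.9 ± 33.7 CPM (SD, n = 4) in Atf4wt/wt and 224 ± 173 CPM (SD, n = 4) in Atf4D/D tumours, with a log2 difference of 1.45 ± 0.79 (edgeR adjusted p = 0.545). Col15a1, a multiplexin of the zone around basement membranes, had a difference of 0.85 ± 0.38 (edgeR adjusted p = 0.478), and Col2a1 of −0.82 ± 0.34 (edgeR adjusted p = 0.464). Without Atf4D/D replicate 3, the number of chains at an unadjusted p under 0.05 was 15 of 29, against 12.6% of all genes in that fit, and the lowest adjusted p was 0.0616. CAF-like cells held 65.8% to 80.5% of a tumour's collagen UMIs in Atf4wt/wt hosts and 26.3% to 91.9% in Atf4D/D hosts. No chain passed the expression filter in macrophage-like cells, the other host group fitted, where edgeR called 1 of 617 genes (0.162%) and 9.08% of them were at an unadjusted p under 0.05.

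Genes that act on the chains were taken from a list of 31 collagen-modifying and processing genes, such as prolyl and lysyl hydroxylases, chaperones and lysyl oxidases. In CAF-like cells 26 were tested and edgeR called 0, with 1 at an unadjusted p under 0.05, and 13 lay above and 13 below 0. Over all 4638 genes tested there, 0.0431% were called, 6.49% were at an unadjusted p under 0.05 and 48% lay above 0. Bmp1, the protease that trims fibrillar procollagen, had a log2 difference of 0.53 ± 0.16 (edgeR adjusted p = 0.529). Of 12 symbols listed for glycine and proline supply, many of them known ATF4 targets, 11 were in the feature tables. In CAF-like cells 6 of them were tested and edgeR called 0, with 0 at an unadjusted p under 0.05. All 6 had fitted values below 0 with a median of −0.23, where the median of all genes was −0.01. In melanoma-like cells 11 were tested and edgeR called 0, with 1 at an unadjusted p under 0.05, all below 0 with a median of −0.14. That gene was Phgdh, the first enzyme of serine synthesis, at −0.34 ± 0.14 (edgeR adjusted p = 0.408). Over all 12554 genes tested there, 0.0319% were called and 11.4% were at an unadjusted p under 0.05. Their median log2 difference was −0.00499, and the share of them below 0 is not given.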

How the data were processed

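Per the labels and methods, the authors aligned 10x Genomics 3′ reads to GRCm38 and made UMI counts per gene and barcode with Cell Ranger 3.1.0, and analysed them with Seurat 3.2.1. The deposited matrices hold these raw counts, 1 per tumour. The labels and the methods name different kit versions. Cells with 200 to 5000 genes and at most 7.5% mitochondrial counts were integrated by host genotype in Seurat 5.3.0 (2000 variable genes, 20 components) and clustered without the collagen genes. A cluster of high mitochondrial share was left out, which took 28411 cells to 28169. No doublet caller was run. Counts were summed per tumour and cell group (at least 10 cells) and fitted with edgeR 4.0.16 (TMM, filterByExpr, quasi-likelihood test), with Benjamini-Hochberg adjustment over all genes tested and a threshold of 0.05. The model was also run on simulated counts with true log2 changes of 1 and 2. For changes of 1 it recovered 69.5% in CAF-like, 95.9% in melanoma-like, 62.9% in adventitial-like and 53.8% in hypoxic CAF-like cells. False calls were 0.730% (hypoxic CAF-like) to 8.24% (whole tumours) of its calls. Smaller changes were not simulated, so a count of 0 called chains does not exclude them. Positions come from GENCODE and promoter windows from RefSeq. The members, lists and naming rules were chosen with earlier results of these data known. Values per tumour are given for chains with at least 2% of the collagen UMIs of CAF-like cells, chains with an unadjusted p under 0.05 in CAF-like or melanoma-like cells, and the 3 leading chains of other groups with at least 10 UMIs. Alternatives were DESeq2, RLE factors, no filter, host sex, a replicate block, each tumour left out, other cell choices and another feature order in the clustering. Replicates are separate tumours, and replicate libraries differed by more than counting error.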

Additional observations from a re-analysis of the deposited data

How the results depend on the processing

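Each count of called chains reported is 0, so an alternative could only add calls, and 3 of 96 did, all in adventitial-like cells. With no expression filter 6 chains were called there (Col3a1, Col1a2, Col1a1, Col4a1, Col18a1 and Col4a2, edgeR adjusted p from 0.000489 to 0.0317), where 74 of 13662 genes (0.542%) were called. With the features in another order in the clustering, an alternative chosen after seeing the data, there were 298 in place of 314 adventitial-like cells. Col3a1 was then the 1 chain called by DESeq2 (adjusted p = 0.0482) and without Atf4wt/wt replicate 1 (0.56, edgeR adjusted p = 0.0477), so leaving out single tumours gave 0 to 1 chains. In these fits Col3a1 lay on different sides of the threshold in both clusterings. The genes that DESeq2 tested also differed, with 1735 in place of 2050, and the cause of the change was not tested. Single chains kept direction and side of the threshold in 381 of 394 cases. Without the filter the median of all genes moved to 0.20 there and to 0.47 in hypoxic CAF-like cells. In adventitial-like cells the adjusted p of Col3a1 was 0.0821 under DESeq2 and 0.0593 to 0.370 when single tumours were left out. In hypoxic CAF-like cells, with single tumours left out, Col1a1 was between −0.10 (without Atf4wt/wt replicate 3) and 0.40 (without Atf4wt/wt replicate 4). Col3a1 there was between −0.39 (without Atf4wt/wt replicate 3) and 0.19 (without Atf4wt/wt replicate 1), and was 0.02 without Atf4D/D replicate 2. With no filter Col1a1 was 0.51, Col1a2 0.13 and Col3a1 0.28 there. The causes were not tested. In CAF-like cells the lowest adjusted p over the chains was 0.251 without Atf4D/D replicate 3 and 0.759 when collagen genes entered the clustering. Over all genes DESeq2 called 4 against 2 by edgeR in CAF-like, 120 against 4 in melanoma-like, 16 against 9 in adventitial-like, 14 against 5 in hypoxic CAF-like and 4 against 1 in macrophage-like cells. With the replicate number as a block, 0 chains were called in CAF-like, melanoma-like, adventitial-like and hypoxic CAF-like cells, with lowest adjusted p of 0.642, 0.703, 0.124 and 0.0522. Same-numbered tumours of both hosts correlated between −0.14 and 0.16 in CAF-like cells and between −0.36 and −0.06 in melanoma-like cells. In CAF-like cells Atf4wt/wt replicates 1 and 4 correlated best with their same-numbered Atf4D/D tumour, and in melanoma-like cells no replicate did. With so few tumours these values cannot decide whether the numbers mark pairs.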

Other observations

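The CAF-like cells outside the named subgroups held the same leading chains. The 87 cells led by Hist1h2ap and Nuf2, both cell-cycle genes, had 3.90% of their UMIs in collagen, with Col3a1 at 11097 CPM, Col1a1 at 10783 CPM and Col1a2 at 9386 CPM. Col12a1, a FACIT chain, was at 407 CPM there, above its 339 CPM in adventitial-like cells, and Col27a1 was at 80.6 CPM against 52.8 CPM. The 82 CAF-like cells with melanoma markers had 1.32% of their UMIs in collagen at a median of 12306 UMIs per cell, against 4581 in all CAF-like cells. Their Col1a1, Col1a2 and Col3a1 were at 3336, 3102 and 4021 CPM. Across the 10 melanoma-like clusters the collagen share lay between 0.00938% and 0.0114%, with the lowest in the cluster led by Fgf21 and Grb14.

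The ratio of Col4a1 to Col4a2 UMIs, partners in the type IV heterotrimer, was 1.71 to 2.31 in the CAF-like cells of the 8 tumours and 1.16 to 1.56 in the melanoma-like cells, so those ranges did not overlap. It was 0.964 to 1.86 in endothelial-like cells of the 6 tumours with at least 10 UMIs of both.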
